A study of Mus musculus with 19 samples.

Results

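The effect of a reduced dose of Wiz was compared between the embryonic brain and the adult cerebellum of the mouse in 12 RNA-seq libraries, out of 19 samples in the series. Every library of the 4 groups entered: 3 Wiz +/+ (WT) and 3 Wiz MommeD30/+ (Het) whole brains of male embryos at 13.5 days post coitum (E13.5), and 3 WT and 3 Het cerebellums at 56 days post partum. The labels do not give the sex of the cerebellum samples, which the methods name as male. The labels give the strain as FVB, and the methods the background as FVB/NJ. MommeD30 is an ENU-induced frame-shift allele of Wiz recovered in Line3, a strain homozygous for a multicopy GFP transgene under a human globin promoter, and carriers were kept by mating them to Line3, a cross in which WT and Het offspring alike inherit the transgene. By the methods, the embryos came from matings between 2 heterozygous parents. The cross that gave the cerebellum animals is not stated, so the cross may also differ between the tissues. Linked variants and the allele cannot be told apart. The 4 E13.5 female brains of the same series (2 WT and 2 Het) were kept out of the comparison and serve below as brains that it did not use. Tissue and age changed together between the 2 pairs of groups, so that a difference between tissues cannot be told apart here from one of age or of sampling.

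Wiz is a protein with widely spaced zinc fingers that binds the histone methyltransferases G9a and GLP, which place mono- and dimethylation on lysine 9 of histone H3, a mark of silent chromatin. Among the genes described below, the clustered protocadherins encode adhesion proteins of neurons, and each neuron expresses a subset of them from alternative promoters under the control of distant enhancers, CTCF and cohesin. In the embryonic brain most cells are progenitors and newborn neurons, whereas the adult cerebellum is dominated by granule neurons, with Purkinje cells as its output neurons.

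Libraries held between 16386029 counts (WT brain 2) and 50459755 counts (WT brain 1), and the cerebellum libraries between 28365687 and 30856484. Levels are given as CPM, the count of a gene as a share of its library's total after TMM scaling over the 12 libraries, and a heterozygous effect is the log2 fold change of Het over WT in 1 tissue. The summed level of 10 granule neuron markers ran from 7021 to 7326 CPM in the cerebellum libraries and from 591 to 629 CPM in the brain libraries, and that of 12 progenitor markers from 2151 to 2490.0 CPM in brain and from 329 to 364 CPM in cerebellum. In bulk tissue, fewer cells of a type and less RNA per cell cannot be told apart. The library that stood apart was Het cerebellum 2, with 1076 CPM of 10 choroid plexus markers, against 1935 to 2289 CPM in the other 5 cerebellums, and 521 CPM of 10 erythroid markers, against 157 to 305 CPM.

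In the model with genotype, tissue and their interaction, 17337 genes were tested with edgeR's quasi-likelihood test, and a gene was called in a tissue at a Benjamini-Hochberg adjusted p of at most 0.05 with a fold change under 0.7 or over 1.3. In brain 56 genes were called, 0.323% of those tested, of which 41 were lower and 15 higher in Het. In cerebellum 91 genes were called, 0.525% of those tested, of which 30 were lower and 61 higher. Thus most calls at these limits were downward in brain and upward in cerebellum. The interaction, which is the effect in cerebellum minus the effect in brain, passed an adjusted p of 0.05 for 45 genes (0.26%), with 29 more positive and 16 more negative in cerebellum. Without the fold limits, 0.427% of genes passed in brain (51 lower and 23 higher) and 1.85% in cerebellum. The cerebellum genes were then split more evenly, with 145 lower and 176 higher. By contrast 23 genes (0.133%) passed the adjusted p in both tissues with the same sign, and 21 of these were lower in Het. Only Nr6a1 passed in both tissues with opposite signs. The number of genes with an interaction ranged from 14 without WT cerebellum 3 to 103 without Het brain 3, and leaving out any of 7 of the 12 libraries moved it by more than 1.5 times. Of the 45 genes, 9 kept their call in all 12 of these fits: Pcdhb16, Pcdhb17, Pcdhb18, Pcdhb19, Pcdhb20, Sycp1, Nr6a1, Pcsk1n and Sik3. With DESeq2 122 interactions passed, and with each tissue fitted alone 146.

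**Figure D1:**
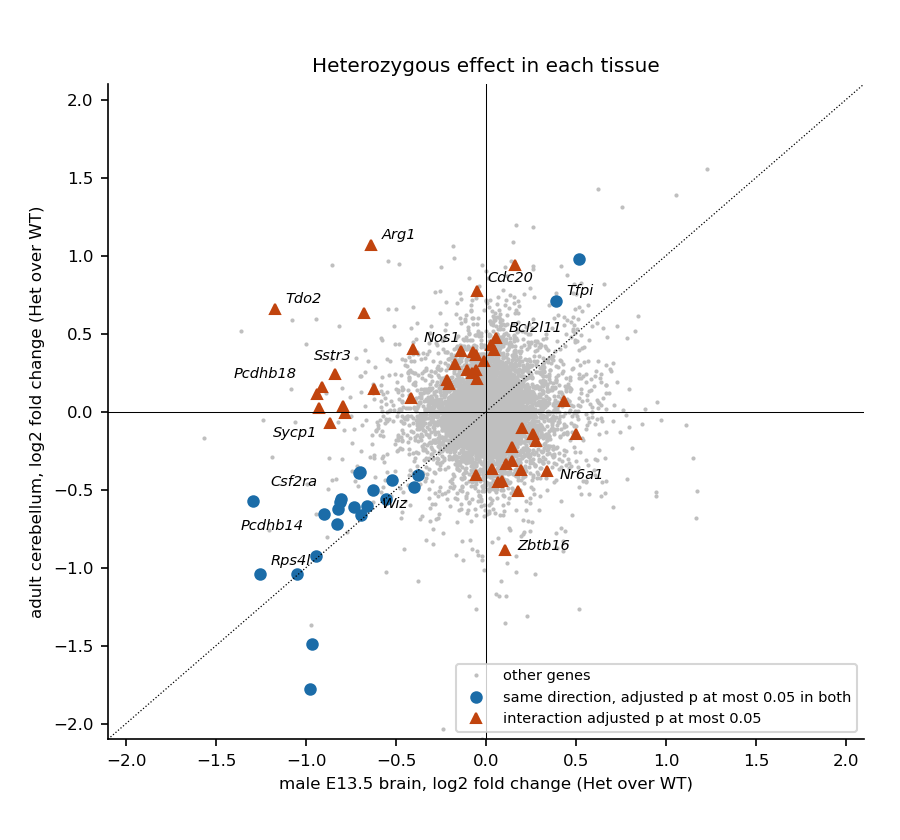
Heterozygous log2 fold change in male E13.5 brain (horizontal axis) and adult cerebellum (vertical axis) for the 15316 genes kept in both tissues; the dotted line marks equal effects. Of the 23 genes that changed in both tissues, 21 lie at the lower left and 2 at the upper right, some of them well off the line of equal effects, and genes with an interaction lie on or beside 1 of the axes or in the quadrants of opposite sign.

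The targeted gene came first. Wiz (chromosome 17, 32354055 to 32389439, minus strand, GRCm38) was at 170.34, 182 and 174 CPM in the WT brains and at 109.73, 117 and 114 CPM in the Het brains. In cerebellum it was at 103, 104 and 103 CPM in WT and 73.2, 71.9 and 73.4 CPM in Het. The genotypes did not overlap in either tissue, so the Wiz level of each library went with its genotype label. Over all tested genes, the genotypes did not overlap for 12.2% in brain and 23% in cerebellum, so separation alone is common. The log2 fold change was −0.63 ± 0.03 (SE, n = 3 per genotype) in brain and −0.50 ± 0.04 in cerebellum (edgeR adjusted p = 3.45e-09 and 5.33e-07). The interaction for Wiz was 0.13, with a 95% interval of 0.02 to 0.23 and an adjusted p of 0.385, so that a difference in its reduction between tissues was not called. None of the 35 tested genes that lie within 1 Mb of Wiz was called in either tissue or in the interaction. Zfp871, 1 of the 35, passed the adjusted p in cerebellum without the fold (effect 0.32, adjusted p = 0.0309, edgeR). That pass was kept in 8 of 12 fits without 1 library (highest adjusted p = 0.15, without WT cerebellum 3). Of the 35 estimates, 10 were lower in Het cerebellum (median 0.072) and 20 in Het brain (median −0.0056).

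Genes lower in both tissues fell into a few groups, of which the largest by count was a set of cadherin 11-like genes and transcripts, mostly on chromosome 8. All 7 listed members found in the files passed in both tissues with the same sign and none had an interaction; their median effect was −0.73 in brain and −0.61 in cerebellum, against medians over all tested genes of 0.0057 and 0. The list was chosen by the study from these samples, so its direction is no independent evidence. For Gm21092, an unprocessed pseudogene (chromosome 8, 20567597 to 20582771, plus strand), the brain libraries had 142, 138 and 136 CPM in WT and 77.9, 81.2 and 75.5 CPM in Het. The cerebellums had 113, 118 and 111 CPM in WT and 75.4, 72.5 and 74.2 CPM in Het, again without overlap. Its effects were −0.82 ± 0.04 and −0.62 ± 0.04 (adjusted p = 1.99e-10 and 4.72e-08, edgeR). Similar values were found for 6820431F20Rik (−0.66 in brain and −0.60 in cerebellum), Gm6483 (−0.73 and −0.61) and 2610005L07Rik (−0.81 and −0.58). These genes are close copies of each other and how reads over such copies were counted is not given, so the share of each member is uncertain. Gm10557, a member on chromosome 18, and the long noncoding RNA Gm26804 passed in both tissues as well.

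The cytokine receptor genes Csf2ra and Crlf2 fell in both tissues. Csf2ra encodes the alpha chain of the GM-CSF receptor and was at 12.3, 14.9 and 12.5 CPM in WT brains and 7.15, 7.6992 and 7.46 CPM in Het brains. In cerebellum the values were 7.25, 8.09 and 8.34 CPM in WT and 6.14, 4.36 and 5.59 CPM in Het. Het fell below WT without overlap in both, by 0.81 and 0.56 on the log2 scale (adjusted p = 0.000133 and 0.0173 with edgeR), although the cerebellum call was kept in 10 of 12 fits without 1 library (highest adjusted p = 0.1, without WT cerebellum 3). Crlf2, which encodes a chain of the receptor for thymic stromal lymphopoietin, moved less: −0.38 ± 0.08 in brain and −0.40 ± 0.08 in cerebellum, with adjusted p of 0.0387 and 0.015 (edgeR). The folds of Crlf2 did not reach 0.7, and its adjusted p in brain stayed at or below 0.05 in 6 of 12 fits without 1 library (highest adjusted p = 0.23, without WT brain 1). Its interaction was −0.03 with a 95% interval of −0.27 to 0.21. Samd11, which encodes a nuclear protein with a sterile alpha motif, had effects of −0.56 and −0.56, an interaction within −0.34 to 0.33, and adjusted p of 0.0214 and 0.0242 (edgeR); its cerebellum call was kept in 8 of 12 fits without 1 library (highest adjusted p = 0.126, without WT cerebellum 3). Csf2ra and Samd11 lie close to the ends of chromosomes 19 and 4. Of the 4 genes listed for such a position, 3 were called lower in brain and 2 in cerebellum, with none showing an interaction. These 4 were picked by the study among genes changed in these samples, so that this count is fixed by the choice; over all genes 0.236% and 0.173% were called lower.

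Rps4l, a processed copy of a gene for a ribosomal protein, fell in both tissues. It was at 17.6, 18.3 and 16.8 CPM in WT and 6.67, 8.02 and 7.25 CPM in Het brains, and at 4.82, 6.22 and 6.03 CPM in WT and 2.14, 3.0037 and 3.13 CPM in Het cerebellums. Its effects were −1.26 ± 0.09 and −1.04 ± 0.14 (edgeR adjusted p = 3.52e-07 and 0.000868), with the reservation that reads of its parent gene and of other copies may be shared. Eln, the gene for elastin, was lower by 0.40 in brain and 0.48 in cerebellum on the log2 scale, short of a fold of 0.7 in both. Its adjusted p in brain stayed at or below 0.05 in 5 of 12 fits without 1 library (highest adjusted p = 0.204, without WT brain 1). Tfpi, an inhibitor of the tissue factor pathway of coagulation, and Slc43a3, a purine nucleobase transporter, were the 2 shared genes that rose. Tfpi rose by 0.39 in brain and 0.71 in cerebellum (adjusted p = 0.0498 and 0.00145, edgeR), Slc43a3 by 0.52 and 0.98. Neither had an interaction past the threshold. With 1 library left out, Tfpi passed in both tissues in 2 of 12 fits and Slc43a3 in 5.

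The protocadherin beta genes divided between the tissues along their row. The 21 genes stand in a row on the plus strand of chromosome 18, from Pcdhb2 (start 37294812) to Pcdhb22 (end 37524479). In brain 15 of 21 were called lower, against 0.236% of all genes called lower there, and in cerebellum 4 of 21, against 0.173%; none was called higher. The median effect over the 21 was −0.70 in brain and −0.15 in cerebellum, beside medians near 0 over all genes. The study reported this family from these same samples, so these counts and their direction are no independent evidence. The 6 members with an interaction were Pcdhb16, Pcdhb17, Pcdhb18, Pcdhb19, Pcdhb20 and Pcdhb22, which are neighbours at the distal end. These genes share a promoter architecture and much of their sequence, so that their values are not independent of each other, and Pcdhb21 and Pcdhb22 overlap in the annotation.

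**Figure D2:**
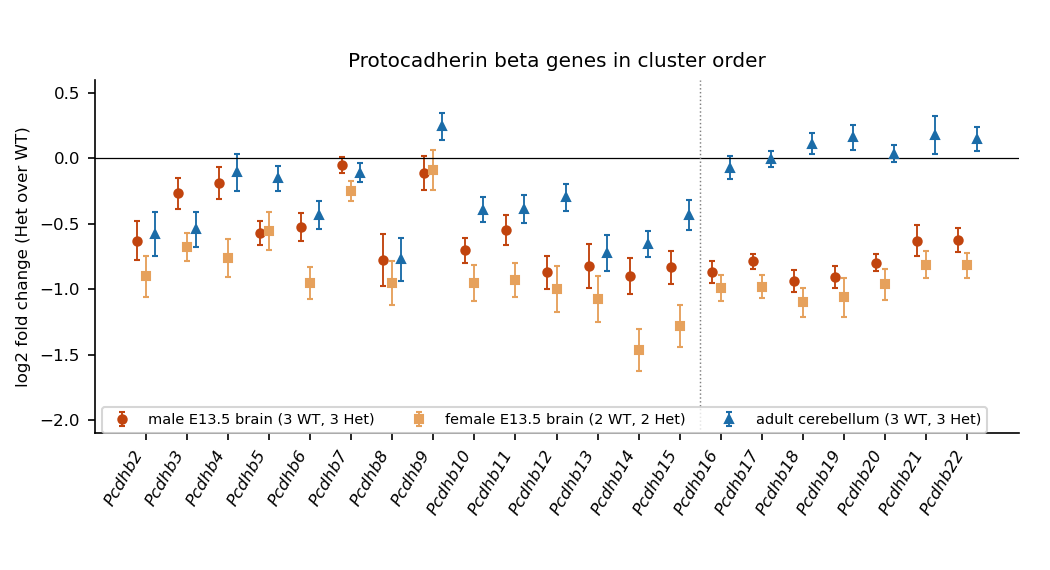
Log2 fold change of Het over WT with its standard error for the 21 protocadherin beta genes in their order along the chromosome, in male E13.5 brain, female E13.5 brain and adult cerebellum. From Pcdhb16 on, right of the dotted line, both brain series stay between −0.62 and −1.10 while cerebellum stays between −0.07 and 0.18.

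The 7 distal genes were called lower in brain, and none of them was called in cerebellum. Pcdhb18 was at 13.3, 11.2 and 11.2 CPM in the WT brains and 6.76, 6.17 and 5.95 CPM in the Het brains. In cerebellum it was at 12.994, 12.1 and 13.8 CPM in WT and 14.3, 14.2 and 13.6 CPM in Het. The brain genotypes were separate, at about the same WT level as in cerebellum, whereas the cerebellum genotypes overlapped. The effect was −0.94 ± 0.08 in brain (adjusted p = 3.85e-06) and 0.11 ± 0.08 in cerebellum (adjusted p = 0.55), and the interaction was 1.05 ± 0.12 (adjusted p = 0.000309, edgeR). For Pcdhb17 the CPM were 25.3, 27.5 and 27.9 in WT brain, 16.8, 14.7 and 15.2 in Het brain, 20.4, 20.5 and 20.6 in WT cerebellum and 21.3, 20.4 and 19.6 in Het cerebellum. Its cerebellum effect had a 95% interval of −0.14 to 0.12, which leaves out a fall of the size seen in brain (−0.79, interval −0.91 to −0.66). Pcdhb19 went from 22.5, 17.4 and 20.9 CPM to 11.998, 10.5 and 10.5 CPM in brain and from 10.2, 11.966 and 10.3 CPM to 12.3, 12.5 and 11.5 CPM in cerebellum, where the estimate pointed up. The interaction was 1.07 for Pcdhb19, 0.83 for Pcdhb20 and 0.80 for Pcdhb16, with adjusted p of 0.000783, 0.000309 and 0.00833 (edgeR). For Pcdhb22 it was 0.77 (adjusted p = 0.0173, with Het slightly above WT and no overlap in cerebellum), kept in 11 of 12 fits without 1 library (highest adjusted p = 0.0516, without WT cerebellum 2). Pcdhb21 had a similar estimate of 0.81 but missed the threshold (adjusted p = 0.0972), and its brain genotypes overlapped.

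Toward the proximal end the estimates were negative in both tissues for 13 of 14 genes. From Pcdhb2 to Pcdhb15, 8 of 14 genes were called lower in brain and 4 in cerebellum, and none had an interaction; the median interaction was 0.13, against 0.81 over the 7 genes from Pcdhb16 to Pcdhb22. This division of the row was drawn after the values were seen and was not tested. Pcdhb14 showed the shared type: it was at 4.12, 4.56 and 3.45 CPM in WT and 2.39, 1.89 and 2.11 CPM in Het brains, and at 12.7, 12.039 and 13.9 CPM in WT and 7.17, 8.24 and 9.0992 CPM in Het cerebellums. Its genotypes were separate in both tissues, although WT levels were higher in cerebellum. The effects were −0.90 ± 0.14 and −0.65 ± 0.10 (edgeR adjusted p = 0.00237 and 0.00297), with an interaction interval of −0.11 to 0.60. Pcdhb13, Pcdhb6 and Pcdhb10 also passed in both, but without 1 library they did so in 7, 4 and 4 of 12 fits, against 12 for Pcdhb14. Between the 2 types, Pcdhb12 and Pcdhb15 were called in brain with cerebellum estimates of −0.30 and −0.43 (adjusted p = 0.141 and 0.0654, edgeR), and neither a shared nor a differing effect was called for them. Pcdhb3 and Pcdhb8 were called in cerebellum (−0.54 and −0.77) and not in brain (−0.27 and −0.77), again with no interaction called. Pcdhb5 and Pcdhb11 were called in brain (−0.57 and −0.55), with cerebellum estimates of −0.15 and −0.39 (adjusted p = 0.485 and 0.0667, edgeR). The interaction of Pcdhb5 was 0.42 and was not called (adjusted p = 0.281, edgeR). Pcdhb2, Pcdhb4, Pcdhb7 and Pcdhb9 were called in neither tissue. Of these, Pcdhb2 had estimates of −0.63 in brain and −0.58 in cerebellum, without overlap in either. The mean of its 2 effects, −0.60, passed (adjusted p = 0.00975, edgeR). Beyond the distal end of the row the noncoding RNA 3222401L13Rik (chromosome 18, 37655451 to 37661742) fell in both tissues, by 1.29 and 0.57 on the log2 scale.

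Female E13.5 brains, which the comparison had not used, gave the same direction for this group. In the 2 WT and 2 Het females the effect of Pcdhb18 was −1.10 ± 0.11 and that of Pcdhb17 −0.98 ± 0.09, and the median over Pcdhb16 to Pcdhb22 was −0.98. With the females in place of the males, in a fit that shares the cerebellum libraries, the interaction was 1.21 for Pcdhb18 and 0.98 for Pcdhb17 (adjusted p = 0.000705 for both, edgeR), and all 6 distal genes with an interaction passed again. Over all genes, this fit called 34 interactions, 15 of them among the 45. All 23 shared genes had the same sign in female brain, 21 of them at an unadjusted p of at most 0.05 (edgeR), against 6.16% of all genes at that level. All 8 genes that differed with a call in brain also kept their sign there, 7 of them at that level.

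Apart from the protocadherins, Sycp1 and Calb1 were the genes with an interaction, a call in brain and an unadjusted p above 0.05 in cerebellum. Sycp1 encodes a protein of the synaptonemal complex, which holds paired chromosomes together in meiosis. It was at 10.3, 8.01 and 9.86 CPM in WT and 4.73, 5.83 and 4.54 CPM in Het brains. In cerebellum it was at 27.3, 27.8 and 27.5 CPM in WT and 30.1, 27.3 and 26.4 CPM in Het. WT levels were thus higher in cerebellum, where the genotypes overlapped, and the fall was in the brain, where they did not. The effects were −0.93 ± 0.10 and 0.02 ± 0.07, and the interaction was 0.95 ± 0.12 (edgeR adjusted p = 0.00176). In female brain the effect of Sycp1 was −1.40 ± 0.14. Calb1, the gene for the calcium-binding protein calbindin that marks Purkinje cells, was at 14.8, 15.1 and 17.004 CPM in WT and 23.2, 20.1 and 20.009 CPM in Het brains, with no overlap, and between 942 and 1015 CPM in the 6 cerebellums, where Het was also above WT by a smaller ratio (0.07 ± 0.04). Its interaction of −0.37 (adjusted p = 0.0475, edgeR) was kept in 2 of 12 fits without 1 library (highest adjusted p = 0.187, without WT brain 1). Female brains did not separate, with 21.7 and 14.3 CPM in WT and 20.2 and 22.8 CPM in Het, and against them the interaction was −0.18 (adjusted p = 0.714).

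Another gene of meiosis, 4930447C04Rik, whose product (also named Six6os1) is a component of the synaptonemal complex, fell in both tissues. It was low everywhere, at 2.62, 1.84 and 3.15 CPM in WT and 1.1952, 1.41 and 1.41 CPM in Het brains, and at 1.06, 0.549 and 1.2972 CPM in WT and 0.267, 0.293 and 0.281 CPM in Het cerebellums. The genotypes did not overlap in either, and the effects were −0.98 ± 0.20 and −1.78 ± 0.37 (adjusted p = 0.0337 and 0.0176, edgeR); the cerebellum call was kept in 7 of 12 fits without 1 library (highest adjusted p = 0.105, without WT cerebellum 3). Of 8 tested genes in a list of germline and meiotic genes, to which it did not belong, Sycp1 was the only one called in brain and none was called in cerebellum.

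Promoter windows are shown for these 2 genes of the synaptonemal complex, 1 changed in brain alone and 1 in both tissues, beside those of Csf2ra and Samd11, which changed in both. Each is the 250 bases before the RefSeq transcript start in GRCm38.p6, read 5′ to 3′ on the minus strand, with any CACGTG (the palindromic E-box, identical on both strands) in capitals:
Sycp1 (chr3:102936101-102936350): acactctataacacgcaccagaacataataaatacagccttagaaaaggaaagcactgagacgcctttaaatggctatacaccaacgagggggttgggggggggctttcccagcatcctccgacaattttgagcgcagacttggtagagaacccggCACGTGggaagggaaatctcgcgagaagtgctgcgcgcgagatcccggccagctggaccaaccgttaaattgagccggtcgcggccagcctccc
4930447C04Rik (chr12:72917766-72918015): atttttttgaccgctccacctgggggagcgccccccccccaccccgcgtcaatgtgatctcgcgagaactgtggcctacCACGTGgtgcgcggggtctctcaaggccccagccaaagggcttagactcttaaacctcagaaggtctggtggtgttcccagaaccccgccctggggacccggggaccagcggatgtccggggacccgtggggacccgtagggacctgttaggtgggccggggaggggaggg
Csf2ra (chr19:61228419-61228668): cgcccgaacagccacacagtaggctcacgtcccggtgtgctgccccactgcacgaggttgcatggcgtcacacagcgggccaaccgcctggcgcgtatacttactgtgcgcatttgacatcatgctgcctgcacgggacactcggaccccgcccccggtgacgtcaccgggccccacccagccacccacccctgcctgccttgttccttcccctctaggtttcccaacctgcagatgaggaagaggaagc
Samd11 (chr4:156255343-156255592): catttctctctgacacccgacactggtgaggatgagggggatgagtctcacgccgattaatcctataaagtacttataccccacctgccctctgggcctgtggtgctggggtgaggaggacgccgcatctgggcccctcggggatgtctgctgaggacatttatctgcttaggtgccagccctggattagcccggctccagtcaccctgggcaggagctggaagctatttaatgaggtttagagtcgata

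The E-box was chosen for the search with the expression values known. It begins 94 bases before the start of Sycp1 and 171 bases before that of 4930447C04Rik, and these letters are not in the windows of Csf2ra and Samd11. Among all 32851 promoter windows of this length, 6.02% hold it, and of the 27025 genes with such a window, 6.86% do. Among the genes with an interaction, 6 of the 29 with a window hold it. Of the 7 genes that differed with a call in cerebellum, 5 have a window and 0 hold it. Of the 23 shared genes, 6 have a window and 1 holds it, and no protocadherin beta gene was looked at. A match of letters is a description of the sequence only.

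In cerebellum, 7 genes were called with an interaction and an unadjusted p above 0.05 in brain. Those that rose were Cdc20, Arhgap20, Trp53i11, Bcl2l11, Nfkbia and Tspan18, and Zbtb16 fell. None of these 7 calls was kept in all 12 fits that each left out 1 library, and the number of genes of this type was 1 to 12 across them, lowest without Het brain 1 and highest without Het cerebellum 3. Of the 7 genes, 4 had the sign of the cerebellum in female brain, 1 of them at an unadjusted p of at most 0.05. With female in place of male brains the interaction passed for Bcl2l11 and Trp53i11, and not for Cdc20, Arhgap20, Nfkbia, Tspan18 and Zbtb16 (edgeR adjusted p from 0.105 to 0.36).

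Bcl2l11 encodes Bim, a member of the BCL2 family that promotes apoptosis. It was at 11.8, 11.7 and 11.9 CPM in WT and 16.5, 16.5 and 16.1 CPM in Het cerebellums, and at 28.8, 27.2 and 28.4 CPM in WT and 28.9, 31.002 and 28.1 CPM in Het brains. Only the cerebellum genotypes were separate. The interaction was 0.41 ± 0.08 (edgeR adjusted p = 0.0262), kept in 6 of 12 fits without 1 library (highest adjusted p = 0.0816, without WT brain 1), whereas the effect within cerebellum, 0.47 ± 0.06, was called in all 12. Cdc20, the activator of the anaphase-promoting complex that ends metaphase, was at 3.2044, 3.22 and 3.02 CPM in WT and 6.11, 5.02 and 5.06 CPM in Het cerebellums and between 47.7 and 55.5 CPM in the 6 brains. Its interaction was 0.82 ± 0.13 (adjusted p = 0.0143, edgeR), kept in 10 of 12 fits without 1 library (highest adjusted p = 0.0664, without WT cerebellum 3). Against female brains the interaction of Cdc20 was 0.49 (adjusted p = 0.36). Among other genes of dividing cells in cerebellum, Mki67 had an estimate of −0.97 and Top2a of −1.17, both short of the threshold and opposite in sign to that of Cdc20 (adjusted p = 0.181 and 0.185, edgeR).

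Zbtb16 (PLZF, a zinc finger transcription factor induced by glucocorticoids) was at 35.2, 28.6 and 22.964 CPM in WT and 13.3, 15.8 and 17.8 CPM in Het cerebellums, and at 8.3016, 10.1 and 9.16 CPM in WT and 9.9984, 9.45 and 9.52 CPM in Het brains. The WT cerebellums were the more spread, and all lay above the Het ones. The effect was −0.89 ± 0.12 in cerebellum and 0.10 ± 0.14 in brain, with an interaction of −0.99 (adjusted p = 0.0272, edgeR) that was kept in 6 of 12 fits without 1 library (highest adjusted p = 0.0951, without WT brain 1). Nfkbia, the inhibitor of NF-kappaB, was at 20.8, 18.992 and 16.9 CPM in WT and 24.3, 24.8 and 25.1 CPM in Het cerebellums, with an interaction of 0.53 (adjusted p = 0.0341) kept in 3 of 12 fits without 1 library (highest adjusted p = 0.113, without WT cerebellum 3). Nfkbia and Zbtb16 both belong to a list of 14 glucocorticoid-responsive genes, in which 2 members were called higher in cerebellum (Sgk1 and Nfkbia), 1 lower (Zbtb16), and none in brain; over all genes, 0.352% were called higher and 0.173% lower in cerebellum. The list was chosen with earlier results of these data known. Sgk1, a kinase induced by glucocorticoids, rose by 0.51 in cerebellum. Its effect in brain had a 95% interval of −0.23 to 0.23, and its interaction was not called (adjusted p = 0.173, edgeR). Arhgap20, Trp53i11 and Tspan18, which encode a GTPase-activating protein, a p53-induced protein and a tetraspanin, rose by 0.38, 0.39 and 0.43 in cerebellum. The genotypes of each were separate there, as they were for 23% of all tested genes. The interactions of these 3 genes were 0.46, 0.35 and 0.40 (adjusted p = 0.0172, 0.0223 and 0.0362, edgeR), kept without 1 library in 11, 7 and 3 of 12 fits.

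**Figure D3:**
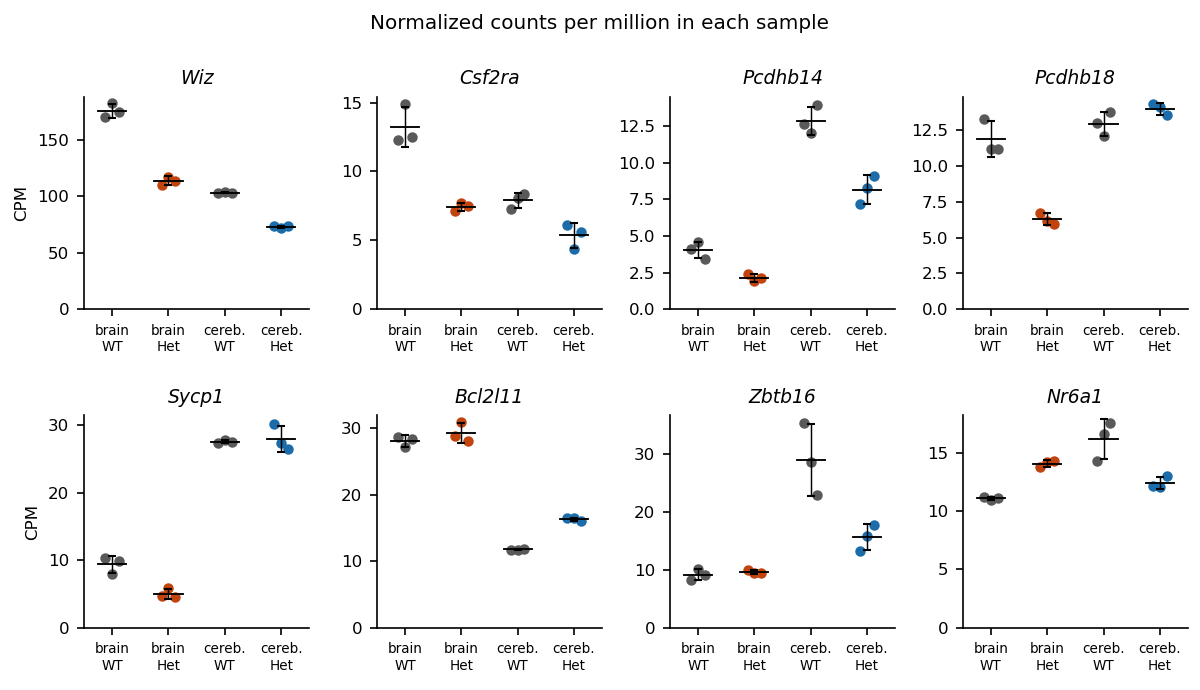
Normalized CPM in each of the 12 libraries for 8 genes, with the mean (bar) and SD of each group of 3; each panel starts at 0. Wiz, Csf2ra and Pcdhb14 are lower in Het in both tissues, Pcdhb18 and Sycp1 in brain, Bcl2l11 is higher and Zbtb16 lower in Het cerebellum, and Nr6a1 moves in opposite directions.

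For 18 genes with an interaction, both tissues had an unadjusted p of at most 0.05 and opposite signs. Nr6a1, which encodes a nuclear receptor of germ cells and early embryos, was at 11.2, 10.962 and 11.2 CPM in WT and 13.7, 14.2 and 14.2 CPM in Het brains, and at 14.3, 16.6 and 17.6 CPM in WT and 12.2, 12.1 and 12.964 CPM in Het cerebellums. Het was above WT in brain and below it in cerebellum, without overlap. The effects were 0.34 ± 0.07 and −0.38 ± 0.07, and the interaction was −0.72 ± 0.10 (edgeR adjusted p = 0.00419). Its fold in brain (1.26) was below 1.3, and its adjusted p there stayed at or below 0.05 in 4 of 12 fits without 1 library (highest adjusted p = 0.177, without WT brain 1). The rise in brain was not repeated in females at an unadjusted p of 0.05 (effect 0.11 ± 0.10), and the interaction against female brains was −0.49 (adjusted p = 0.176). Pcsk1n, which encodes proSAAS, a precursor of neuropeptides and an inhibitor of a prohormone convertase, was at 223, 200.02 and 218 CPM in WT and 165, 171 and 179.95 CPM in Het cerebellums. In the male brains it was at 53.3, 54.1 and 52.7 CPM in WT and 59.9, 61.4 and 55.024 CPM in Het, where Het was higher, and in the female brains at 81.8 and 85.2 CPM in WT and 73.8 and 77.2 CPM in Het, where Het was lower. The interaction of −0.46 (adjusted p = 0.0058, edgeR) was −0.17 against the females (adjusted p = 0.415).

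Podxl, the gene for the sialomucin podocalyxin, and Ogdhl, which encodes a mitochondrial dehydrogenase subunit, had positive estimates in brain (0.11 and 0.20) and negative ones in cerebellum (−0.34 and −0.10). Their interactions were −0.45 and −0.30 (adjusted p = 0.0108 and 0.0163, edgeR), and each was lost without WT cerebellum 3 (adjusted p = 0.0587 and 0.0662) and against female brains (adjusted p = 0.0701 and 0.0546). Sstr3, a somatostatin receptor gene, went the other way, from 2.27, 2.34 and 2.02 CPM in WT to 0.873, 1.34 and 1.49 CPM in Het brains and from 12.9, 14.6 and 14.4 CPM to 15.7, 16.9 and 16.9 CPM in cerebellum. Its interaction was 1.08 ± 0.18 (adjusted p = 0.0171, edgeR). WT females had 0.717 and 1.32 CPM of Sstr3 and Het females 1.09 and 1.04 CPM, at the level of the Het males, and against them the interaction was 0.17 (adjusted p = 0.874).

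Tdo2, the first enzyme of tryptophan breakdown along the kynurenine route, was at 10.5, 11.1 and 12.3 CPM in WT and 17.7, 17.9 and 18.1 CPM in Het cerebellums. In brain it was near the limit of the counts, at 0.929, 1.28 and 0.755 CPM in WT and 0.299, 0.251 and 0.73005 CPM in Het. The interaction of 1.83 ± 0.31 (adjusted p = 0.0172, edgeR) was kept in 9 of 12 fits without 1 library (highest adjusted p = 0.0816, without WT brain 1), was 0.86 against female brains (adjusted p = 0.618), and the rise of 0.66 in cerebellum was called in all 12 fits. Of the other 7 tested genes of the kynurenine route none was called. Nos1, the neuronal nitric oxide synthase, was at 329, 355 and 322 CPM in WT and 440.38, 435 and 457 CPM in Het cerebellums, and at 26.966, 20.5 and 18.4 CPM in WT and 14.7, 15.968 and 20.7 CPM in Het brains. The cerebellum groups were separate and the brain groups overlapped. Its effect was 0.40 ± 0.08 in cerebellum and −0.40 ± 0.12 in brain (adjusted p = 0.0177 and 0.191), and the interaction was 0.81 (adjusted p = 0.0238, edgeR), kept in 8 of 12 fits without 1 library (highest adjusted p = 0.094, without WT brain 1). Female brain gave −0.43 ± 0.10, and the interaction against it was 0.84 (adjusted p = 0.000839). None of the other 8 tested genes of nitric oxide and cyclic GMP signalling was called in any of the 3 tests.

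**Figure D4:**
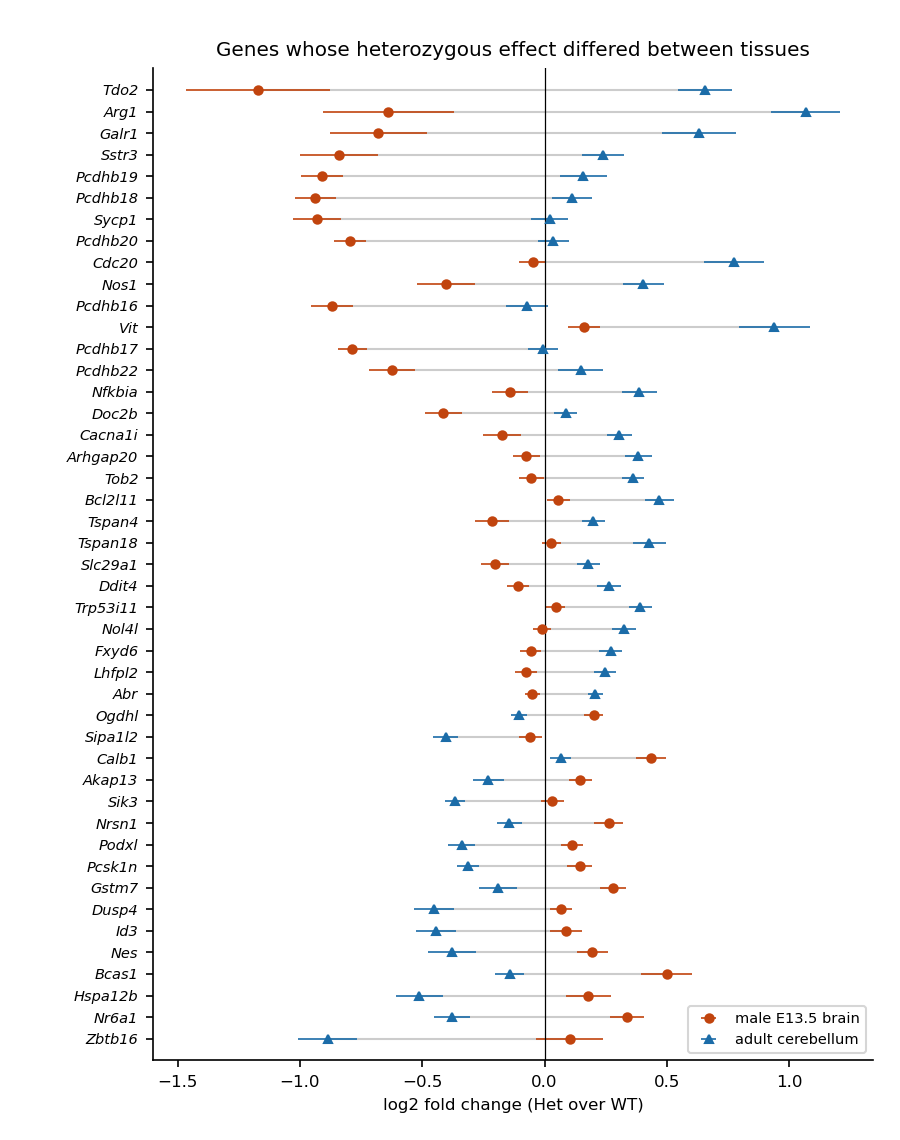
Log2 fold change of Het over WT with its standard error in male E13.5 brain and adult cerebellum for the 45 genes with an interaction, ordered by the difference between the tissues. In 37 of the 45 the estimates have opposite signs, and the distal protocadherins and Sycp1 are far from 0 in brain and near 0 in cerebellum.

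Over the 45 genes, 27 passed the adjusted p in cerebellum alone (19 higher and 8 lower in Het), 13 in brain alone (4 higher and 9 lower), 1 in both and 4 in neither. Nes, the intermediate filament of neural progenitors, was 1 of the 4: its estimate was 0.20 in brain and −0.38 in cerebellum, with an interaction of −0.57 (adjusted p = 0.044, edgeR) that was kept in 3 of 12 fits without 1 library (highest adjusted p = 0.205, without WT cerebellum 3). Sik3, a salt-inducible kinase gene named here after its values were seen, was 1 of the 8 lower in cerebellum, with effects of −0.37 ± 0.04 there and 0.03 ± 0.05 in brain.

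For 25 of the genes called in brain and 62 of those called in cerebellum, neither a shared nor a differing effect was established. Of the 56 genes called in brain, 21 were shared, 10 had an interaction and 25 had neither; 24 of the 25 were measurable in cerebellum, 17 of them with the same sign there and 11 at an unadjusted p of at most 0.05 with that sign. Of the 91 called in cerebellum, 17 were shared, 12 had an interaction and 62 had neither. Of those 62, 10 were too low in brain to pass the filter there. Of the other 52, 41 had the same sign in brain and 14 also an unadjusted p of at most 0.05. The interaction itself reached an unadjusted p of at most 0.05 (edgeR) for 17 of the 24 brain genes and 34 of the 52 cerebellum genes. Among all 15316 genes kept in both tissues, 1573 had one under 0.05. The undecided genes were picked by a call in 1 tissue, so their counts are not independent of that choice. Because neither type of effect was established for them, a call in 1 tissue alone is not counted here as confined to it. Casp1, which encodes the protease that matures interleukin 1 beta, was such a gene: it rose in cerebellum from 2.18, 2.38 and 2.38 CPM in WT to 5.92, 5.46 and 5.87 CPM in Het, by 1.31 ± 0.14 (adjusted p = 6.92e-05, edgeR). In brain it was below 1 CPM in every library, its effect was 0.76 ± 0.28, and the interaction was not called (adjusted p = 0.629). Against female brains, however, the interaction of Casp1 was 1.79 and passed (adjusted p = 0.0221, edgeR). Of 10 tested genes of inflammatory caspases and NF-kappaB, 4 were called higher in cerebellum (Casp1, Casp12, Nfkbia and Il18), where 0.352% of all genes were, and none in brain, and Nfkbia alone had an interaction. This list, like the others here, was chosen with earlier results of these data known, so its count is no independent evidence. The call of Il18 was kept in 7 of 12 fits without 1 library (highest adjusted p = 0.112, without Het cerebellum 1). Over the 15316 genes kept in both tissues, the 2 effects had the same sign in 57%, and their correlation across genes was 0.117 (Pearson) and 0.134 (Spearman), where genes are not independent replicates and all share the same libraries.

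The mean of the 2 tissue effects, which gains precision when a change is common (median standard error 0.043 against 0.0579 in brain and 0.0603 in cerebellum), passed an adjusted p of 0.05 for 187 genes, 1.08% of those tested, with 85 higher and 102 lower. Of these, 71 were called in neither tissue and had the same sign with an unadjusted p of at most 0.05 in each. Synpr, the gene for the synaptic vesicle protein synaptoporin, was at 19.5, 15.7 and 18.2 CPM in WT and 22.2, 21.959 and 21.4 CPM in Het brains, and at 89.019, 86.4 and 91.014 CPM in WT and 106, 111 and 116 CPM in Het cerebellums. The genotypes did not overlap in either tissue, and the mean effect was 0.29 ± 0.04 (adjusted p = 0.000376, edgeR). It did not pass an unadjusted p of 0.05 in female brain, where its effect was 0.03 ± 0.08. Of the 71 genes, 58 had the same sign in female brain and 12 also an unadjusted p of at most 0.05.

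Genes of the complexes around Wiz were compared next. Of 13 genes for G9a, GLP and other factors of histone H3 lysine 9 methylation, Wiz was the only one called (in brain, since its fold in cerebellum, 0.707, did not reach 0.7), and of 15 genes for CTCF, cohesin and its regulators none was. Zfp644, 1 of the 13, passed the adjusted p in cerebellum without the fold (0.15, adjusted p = 0.0422, edgeR). That pass was kept in 5 of 12 fits without 1 library (highest adjusted p = 0.141, without WT cerebellum 1). Immediate early genes, which neurons induce on activity, had 2 of 20 called lower in cerebellum, where 0.173% of all genes were, and none in brain: Vgf (−0.58 ± 0.13, adjusted p = 0.0257) and Nr4a1 (−0.52 ± 0.12, adjusted p = 0.0352, edgeR). Each was kept in 8 of 12 fits without 1 library, with the highest adjusted p (0.146 and 0.203) without WT cerebellum 3. Among 18 genes of collagens and other matrix proteins, Col12a1 and Col4a6 were called higher in cerebellum, by 0.49 and 0.50, against 0.352% of all genes, and none in brain. The cerebellum estimates of 12 of the 18 were negative (median −0.064), among them Col4a2 at −0.27 (adjusted p = 0.0421, edgeR), short of a fold of 0.7.

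Markers of other cells were compared in the same way. In cerebellum 3 of 10 erythroid genes were called higher in Het (Alas2, Hbb-bs and Hba-a1), against 0.352% of all genes, and their list summed to 157 to 245 CPM in the 3 WT and 289 to 521 CPM in the 3 Het cerebellums; in brain, at 680 to 957 CPM in WT and 816 to 1088 CPM in Het, none was called. Alas2, the first enzyme of heme synthesis in red cells, rose by 1.09 ± 0.19 in cerebellum and was still called without Het cerebellum 2. The call of Hbb-bs was kept in 11 of 12 fits without 1 library (highest adjusted p = 0.0614, without WT cerebellum 1), and that of Hba-a1 in 8 of 12 fits without 1 library (highest adjusted p = 0.165, without WT cerebellum 1). The part that the blood content of the tissue has in the cerebellum calls was not tested. Purkinje markers summed to 8994 to 9581 CPM in WT and 9507 to 9663 CPM in Het cerebellums, and progenitor markers to 350 to 364 CPM and 329 to 355 CPM. Of the 12 progenitor markers, 10 had lower estimates in Het cerebellum (median −0.20) and 2 in Het brain (median 0.076). None of them was called in either tissue. The median interaction of this list was −0.24, Nes was its only member with an interaction past the threshold, and the list as a whole was not tested. Calb1 in brain was the only member of the Purkinje list called. No granule, astrocyte, oligodendrocyte, interneuron, newborn neuron, microglial, endothelial, meningeal or choroid plexus marker was called in either tissue. Some passed the adjusted p in cerebellum without the fold. Among these, Mag (−0.18, adjusted p = 0.0214), Mbp (−0.16, 0.0341) and Tubb3 (−0.26, 0.0121) were lower in Het, and Slco1a4 (0.23, 0.0263, edgeR) was higher. Of the 10 oligodendrocyte markers, 9 had lower estimates in Het cerebellum (median −0.11).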

How the data were processed

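The authors sequenced polyadenylated RNA as 100-base single reads, aligned them to mm10 with TopHat2 2.0.11 and counted reads per gene with HTSeq 0.6.1; the counting mode and strand setting are not given in the sources used here. They deposited raw counts per gene, which were used as deposited. Gene names and GRCm38 coordinates came from the GENCODE annotation supplied with the files, which matched 40340 of 41388 identifiers.

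Genes were kept with edgeR's filterByExpr (minimum count 10) and scaled by TMM over the 12 libraries. One quasi-likelihood model with 4 group means gave the effect in each tissue, their mean and the interaction (edgeR 4.0.16 in R 4.3.3), with Benjamini-Hochberg adjustment over 17337 genes. An effect within a tissue needed an adjusted p no higher than 0.05 with a fold below 0.7 or above 1.3, the interaction and the mean that adjusted p alone, and a shared effect that adjusted p in both tissues with the same sign. An effect was taken to differ with a call in 1 tissue when the interaction passed and the unadjusted p in the other tissue was above 0.05. Calls are two-sided, and n is 3 libraries per group; nothing in the labels says whether these were separate litters, so p-values measure the spread between these libraries. No 2 libraries agreed within sampling noise. The 4 female brains were fitted alone. The script for the fit was tested on simulated data.

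Members, gene lists and thresholds were chosen with earlier results of these data known. Named genes were taken by p within each type of effect (shared, differing with a call in cerebellum or in brain, opposite in sign, mean), together with Wiz and called members of the lists; genes named outside this rule are said to be so, and 1 gene that the rule names is not reported here. The alternatives were other size factors, DESeq2 1.42.0, limma-voom (limma 3.58.1), each tissue fitted alone, other filters, a replicate block, each library left out and the female brains added, and, chosen after seeing the data, female in place of male brains. Promoter sequences came from RefSeq (GRCm38.p6). The intervals cover the spread between libraries, and figures were drawn with matplotlib 3.10.9.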

Additional observations from a re-analysis of the deposited data

Results flagged for a closer look

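The effect of Wiz MommeD30/+ differed between male E13.5 brain and adult cerebellum by the interaction test for the 23 genes below, given as the effect in cerebellum minus that in brain on the log2 scale (edgeR, adjusted p of at most 0.05). Among the protocadherin beta genes it was 0.80 for Pcdhb16, 0.78 for Pcdhb17, 1.05 for Pcdhb18, 1.07 for Pcdhb19, 0.83 for Pcdhb20 and 0.77 for Pcdhb22. For the other genes called in brain it was 0.95 for Sycp1 and −0.37 for Calb1. For the genes called in cerebellum it was 0.82 for Cdc20, 0.46 for Arhgap20, 0.35 for Trp53i11, 0.41 for Bcl2l11, 0.53 for Nfkbia, 0.40 for Tspan18 and −0.99 for Zbtb16. For the genes with effects of opposite sign it was −0.72 for Nr6a1, −0.46 for Pcsk1n, −0.45 for Podxl, −0.30 for Ogdhl, 1.08 for Sstr3, 1.83 for Tdo2, 0.81 for Nos1 and −0.57 for Nes.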

How the results depend on the processing

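Leaving out 1 library at a time gave 14 to 103 genes with an interaction, 31 to 203 called in brain, 45 to 111 in cerebellum, 12 to 29 shared, 1 to 12 that differed with a call in cerebellum, 5 to 26 with a call in brain, and 100 to 386 for the mean effect. Of the 23 shared genes 10 were called in all 12 of these fits, of the 45 interactions 9, and 8 of these also in all 10 other settings. The DESeq2 Wald test gave 122 interactions, 18 and 17 genes that differed with a call in cerebellum and in brain, and 319 for the mean. With each tissue fitted alone there were 146 interactions, 33 brain, 139 cerebellum, 20 differing cerebellum and 556 mean calls; the common dispersion was 0.00181 in brain and 0.00098 in cerebellum, against 0.00146 jointly. Without a low-count filter the counts were 416 interactions, 212 brain, 191 cerebellum, 75 shared, 41 and 29 differing in cerebellum and brain, and 955 mean. limma-voom called 143 genes in cerebellum, and keeping only genes measured in both tissues gave 11 that differed in cerebellum. Without the fold limit, 321 genes passed in cerebellum and 17 differed there. Adding female brains gave 90 brain and 300.0 mean calls. Same-numbered libraries did not deviate together (mean correlation −0.104 in brain and −0.0593 in cerebellum), and with the replicate number as a block there were 13 interactions, 15 shared, 1 differing cerebellum and 109 mean calls. Where no value above shows it, the cause was not tested.

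The direction of each called effect of the named genes held under every alternative run except 1: with female in place of male brains the brain effect of Sstr3 was 0.0716 (edgeR adjusted p = 0.946). The interaction of a called gene kept its side of the threshold in 425 of 529 fits. At 3 libraries per group, with a median standard error of 0.086 for the interaction, a missed threshold does not show that 2 effects are equal.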

Other observations

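Some further genes moved apart between the tissues without being in the lists; they were chosen after their values were seen. Ddit4, an inhibitor of mTOR signalling that stress and glucocorticoids induce, had an effect of −0.11 ± 0.04 in brain and 0.26 ± 0.05 in cerebellum, with an interaction of 0.37 (edgeR adjusted p = 0.0228). Galr1, a receptor for the neuropeptide galanin, had −0.68 ± 0.20 and 0.63 ± 0.15, with an interaction of 1.31 (adjusted p = 0.0337). For Cacna1i, which encodes a T-type calcium channel, the effects were −0.17 ± 0.08 and 0.31 ± 0.05, with an interaction of 0.48 (adjusted p = 0.0362). In female brain the effects were 0.04 for Ddit4, −0.77 for Galr1 and −0.25 for Cacna1i. With 1 library left out, the interaction passed in 9 of 12 fits for Ddit4, in 2 for Galr1 and in 5 for Cacna1i.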
